A study of Tupaia belangeri chinensis with 36 samples.

Results

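The marginal zone (MZ) and the cortical plate (CP) of the fetal cortex of the Chinese tree shrew (Tupaia belangeri chinensis) were compared at embryonic day 28 (E28). The libraries were chosen by the layer and the age in their labels, which gave 2 of the MZ and 2 of the CP, or 4 of the 36 libraries of the series. The series covers the ventricular zone (VZ), the inner and outer subventricular zones (ISVZ and OSVZ), the intermediate zone (IZ), the CP and the MZ at E28, E37 and E42. Each layer was cut by laser from Nissl-stained frozen sections, and its polyadenylated RNA was sequenced. No treatment and no genetic change is named for either group, so both are untreated tissue of one species and one age. The labels do not say whether replicate 1 and replicate 2 came from separate animals. The p-values rest on the spread between libraries of the same layer and stage, shared over 35 libraries of the series in 18 groups. That spread may in part be technical.

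The MZ is the outermost layer of the developing cortex, beneath the pia. It holds Cajal-Retzius cells, which secrete reelin, and a stream of migrating GABAergic interneurons, together with dendrites, axons and the end feet of radial glia. The CP beneath it is packed with young glutamatergic projection neurons, which receive the reelin signal through the receptors VLDLR and LRP8 and settle in an inside-out order.

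Counts were given for 76871 annotated features. Of these, 21043 carried a TSDBGID identifier without a gene symbol, 31776 were named LINC-SYMBOL-n and 22595 were named SYMBOL-AS-n. None of the identifiers was found in the RefSeq table of the assembly TupChi_1.0, so genes are named here only through the symbols inside LINC and AS names, of which 10411 of 12435 were RefSeq symbols of the tree shrew. The files carry no definition of these names. A symbol is therefore a label of the feature, and its value is not the level of the coding gene of that name. The sources used here do not say whether strand was used in counting, and without strand the reads of a gene and of a feature antisense to it cannot be told apart. LINC features took between 0.806% and 1.05% of the counts of the 4 libraries and AS features between 0.840% and 1.20%.

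Counts on features came to 30241305 and 20896997 in MZ replicates 1 and 2 and to 24378435 and 39074989 in CP replicates 1 and 2, within the range of the 35 distinct files of the series (17932690 to 102042743). Of all lines counted, 52.5% to 56.9% fell on features and 16.9% to 18.3% were ambiguous between features. The counts of the 2 libraries of a layer differed by more than counting error gives (chi-square over its degrees of freedom 92.4 in the MZ and 86.5 in the CP), so neither pair was treated as 1 library deposited under both numbers. This measure does not tell separate animals from separate preparations of one sample. The deposited file of E28 VZ replicate 2 was identical to that of E42 VZ replicate 2, and it was used once, under its E28 label. Levels are given as CPM, the counts scaled to a common library size after TMM normalisation. A feature is called higher or lower where edgeR's quasi-likelihood test gave a Benjamini-Hochberg adjusted p under 0.05 over all features tested. Each fold change is the fitted log2 of MZ over CP, 2 libraries a layer. The SE after it is the size of the fold change divided by the square root of the test's F statistic. It thus rests on the spread shared over the 35 libraries of the model, and not on these 2 libraries a layer alone.

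Similar numbers of features were higher and lower in the MZ, and the higher ones differed by more. Of 26858 features tested, 1195 (4.45%) were higher in the MZ and 1281 (4.77%) were lower. The median log2 fold change was 2.05 among the higher features, of which 1038 exceeded 1, and −0.86 among the lower ones, of which 478 exceeded 1 in size. The 2 MZ libraries lay entirely above or below the 2 CP libraries for 1165 of the higher and 1278 of the lower features, as for 10029 of all tested. In tissue pieces, fewer cells of a type and less RNA per cell cannot be told apart. With DESeq2's size factors in the same model the split was 1303 higher and 821 lower, and with the replicate number as a block, which pairs the E28 libraries, it was 1814 and 2458. Leaving out CP replicate 2 gave 484 higher and 671 lower, CP replicate 1 gave 753 higher, MZ replicate 1 gave 731 higher, and a fit to the 4 libraries alone called 43 and 6.

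Most calls fell on TSDBGID features. Of 15911 tested, 1096 (6.89%) were higher and 1194 (7.5%) lower. The higher ones were of moderate level, with a median of 9.87 CPM in the MZ, and the lower ones were abundant, with a median of 96.2 CPM in the CP. Among 10836 LINC and AS features tested, 99 (0.914%) were higher in the MZ and 85 (0.784%) lower, under 175 symbols in all. The 99 higher features comprised 44 LINC and 55 AS features, with a median of 1.83 and 1.58 CPM in the MZ. The CP had no count of 24 of them, and the MZ had none of 35 of the 85 lower ones. With these features at the smallest fold that a floor of 3 counts over the layer allows, the median log2 fold changes were 3.31 and −2.44. With the replicate number added to the model as a term (the replicate block) 163 LINC and AS features were higher and 153 lower. The counts were 37 and 60 without CP replicate 1, 34 and 46 without CP replicate 2, 58 and 101 without MZ replicate 1, and 106 and 180 without MZ replicate 2.

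**Figure D1:**
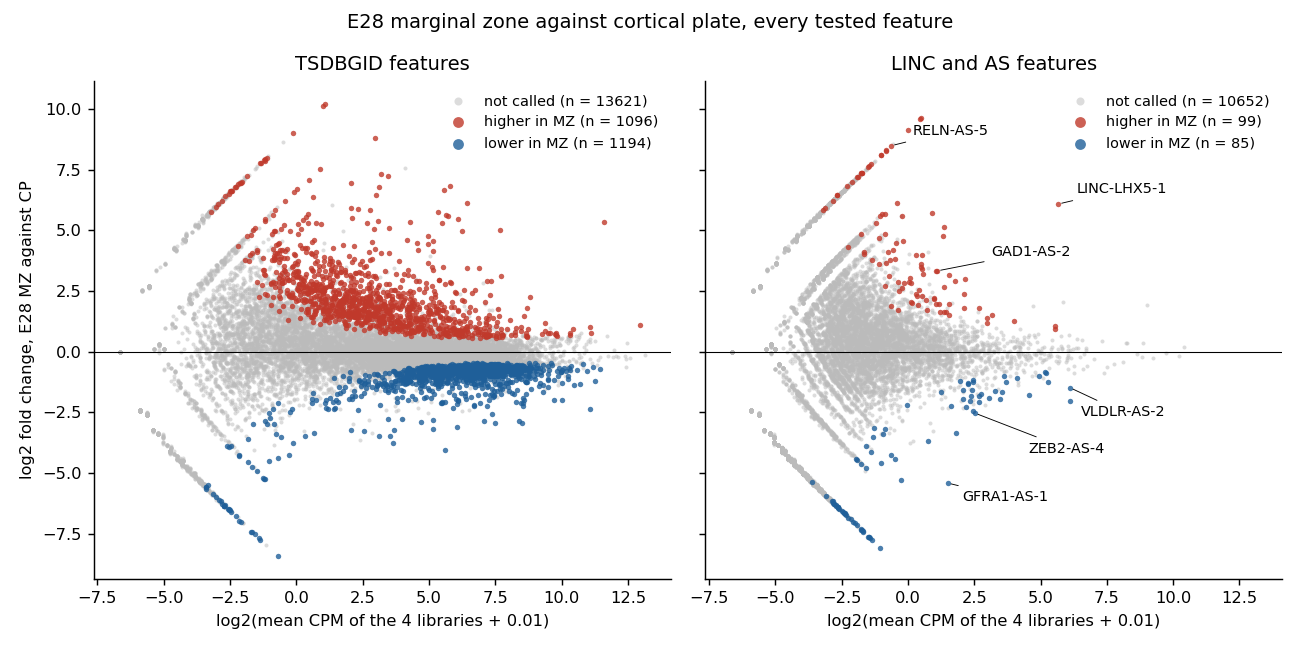
Log2 fold change of the E28 MZ against the CP (vertical axis) by the log2 of the mean CPM of the 4 libraries plus 0.01 (horizontal axis), with each tested feature as a point, TSDBGID features on the left and LINC and AS features on the right. Red points are called higher in the MZ (1096 and 99) and blue points lower (1194 and 85). LINC-LHX5-1 lies farthest to the upper right among the called LINC and AS features, and VLDLR-AS-2 is the labelled lower feature of the highest level.

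Features named for Cajal-Retzius cell genes held the most abundant LINC or AS feature that was higher in the MZ among those described here. LHX5 encodes a LIM homeodomain transcription factor found in Cajal-Retzius cells. LINC-LHX5-1 stood at 123 and 77.1 CPM in the MZ and at 1.93 and 1.055 CPM in the CP. Both MZ libraries lay far above both CP libraries, and the log2 fold change was 6.08 ± 0.67 (adjusted p = 5.2e-06). It passed under each of the 15 other settings, among them each left-out library, with log2 fold changes between 5.61 and 6.53.

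RELN encodes reelin, the glycoprotein that Cajal-Retzius cells secrete. RELN-AS-5 had 1.88 and 0.662 CPM in the MZ and no count in either CP library. It was at least 28.3-fold higher in the MZ, with an adjusted p of 0.022, which became 0.10 without CP replicate 1, 0.16 without CP replicate 2 and 0.072 without MZ replicate 1. RELN-AS-4 had 1.06 and 1.76 CPM in the MZ and 0 and 0.108 CPM in the CP and did not pass (adjusted p = 0.18). The MZ thus lay above the CP in both reelin features, of which the first passed.

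Other members of this list were at low levels or equal in the layers. LHX1 is a LIM homeobox gene close to LHX5, and LINC-LHX1-4 had 0.303 and 1.01 CPM in the MZ and no count in the CP (adjusted p = 0.070). CXCR4, the receptor for CXCL12, carries LINC-CXCR4-1, with 0.485 and 0.750 CPM in the MZ and 0 and 0.0271 CPM in the CP (adjusted p = 0.055, and 0.047 with the replicate block). TP73, a transcription factor of the p53 family that marks Cajal-Retzius cells, carries LINC-TP73-1, which had 5.92 and 7.37 CPM in the MZ and 7.30 and 5.87 CPM in the CP, so that the layers overlapped (log2 fold change 0.01 ± 0.37). NDNF-AS-2 and CALB2-AS-2, named for a secreted neuron-derived factor and for calretinin, stayed under 0.4 CPM in each of the 4 libraries and did not pass.

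Of 12 tested features of the Cajal-Retzius list, 2 were higher in the MZ and both are named above. The 10 with at least 10 counts over the 4 libraries had a median log2 fold change of 5.37, or 2.87 with the 4 that had no count in one layer at their bound, against 0.398 over the 6992 LINC and AS features with that many counts. This cut is on the 4 libraries together, so a feature can pass it through the layer where it is high. The medians that use it, here and below, are therefore a description. The summed level of the list was 134 and 90.3 CPM in the MZ and 10.6 and 8.28 CPM in the CP, and LINC-LHX5-1 made up most of the MZ sum. No count fell on a feature of EBF1, EBF2, EBF3 or BARHL2.

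For a feature named for a reelin receptor the call went the other way. VLDLR encodes a reelin receptor, and VLDLR-AS-2 had 33.9 and 38.7 CPM in the MZ and 86.7 and 115 CPM in the CP. Both CP libraries lay above both MZ libraries, with a log2 fold change of −1.48 ± 0.23 (adjusted p = 0.00015), and the call held without each library in turn. Of 29 tested features in the reelin list, which holds the ligand, its receptors, the adaptor DAB1, kinases and adhesion partners, 1 was higher and 1 lower in the MZ. The 17 with at least 10 counts over the 4 libraries had a median log2 fold change of 0.567, against 0.398 over the LINC and AS features with that many counts. The adaptor feature LINC-DAB1-7 had 0 and 0.441 CPM in the MZ and 0.410 and 0.325 CPM in the CP. SRC-AS-3, named for a kinase that phosphorylates DAB1, had 2.91 and 1.90 CPM in the MZ and 3.65 and 3.73 CPM in the CP (adjusted p = 0.30). The summed level of the list, most of it VLDLR-AS-2, was 50.4 and 62.5 CPM in the MZ and 106 and 135 CPM in the CP.

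Features named for GABAergic interneuron genes formed the cell type list with the most calls. Of 40 tested, edgeR's quasi-likelihood test called 6 higher in the MZ and 0 lower, with 16 higher and 0 lower at an unadjusted p under 0.05 and 11 higher and 0 lower by the DESeq2 Wald test. Of all 10836 LINC and AS features tested, edgeR's test called 0.914% higher and 0.784% lower. Of all 26858 features tested, 6154 had an unadjusted p under 0.05, in either direction. They include TSDBGID features, which were called more often than LINC and AS features (6.89% against 0.914% higher). That number is therefore not matched to counts of LINC and AS features in a single direction, here or below. The DESeq2 Wald test called 202 LINC and AS features higher and 127 lower. The summed level was 40.3 and 40.0 CPM in the MZ and 6.52 and 8.58 CPM in the CP. The 25 with at least 10 counts had a median log2 fold change of 3.03. It was 2.77 with the 4 that had no count in one layer at their bound. Over the 6992 LINC and AS features with that many counts the median was 0.398. No count fell on a feature of DLX2, LHX8 or NKX2-1.

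GAD1 encodes an enzyme that makes GABA. GAD1-AS-2 had 3.37 and 4.41 CPM in the MZ and 0.328 and 0.433 CPM in the CP (log2 fold change 3.33 ± 0.73, adjusted p = 0.0039). GAD1-AS-1 had 1.40 and 2.73 CPM in the MZ and 0.328 and 0.460 CPM in the CP (log2 fold change 2.36 ± 0.72, adjusted p = 0.035). Both features of the locus thus separated the layers. GAD2-AS-1, named for the second such enzyme, had 0.941 and 1.06 CPM in the MZ and 0.123 and 0.460 CPM in the CP and did not pass (adjusted p = 0.34).

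DLX5 encodes a transcription factor that acts in the ganglionic eminences, where interneurons are born, and DLX5-AS-1 had 1.06 and 2.65 CPM in the MZ and 0.164 and 0.271 CPM in the CP (log2 fold change 3.03 ± 0.74, adjusted p = 0.0085). Its MZ libraries did not overlap those of the CP. LHX6-AS-1, named for a factor that acts in the same lineage, had 2.15 and 3.84 CPM in the MZ and 0.615 and 0.271 CPM in the CP (adjusted p = 0.090).

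SST encodes somatostatin, a neuropeptide of one interneuron class. SST-AS-1 had 2.12 and 5.47 CPM in the MZ and 0.287 and 0.460 CPM in the CP (log2 fold change 3.31 ± 0.98, adjusted p = 0.030). HTR3A, from the list of neurotransmitter receptors, encodes a serotonin receptor subunit that marks another class, and HTR3A-AS-1 had 1.21 and 4.06 CPM in the MZ and 0.205 and 0.271 CPM in the CP (log2 fold change 3.43 ± 1.1, adjusted p = 0.040). For GAD1-AS-1, DLX5-AS-1, SST-AS-1 and HTR3A-AS-1 the level was higher in MZ replicate 2 than in replicate 1. LINC-NR2F2-1, named for a factor of the caudal ganglionic eminence, had 5.61 and 0.750 CPM in the MZ and 0.0410 and 0.298 CPM in the CP (adjusted p = 0.21).

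The call of GAD1-AS-2 held without each library in turn (adjusted p 0.0066 to 0.048). Without CP replicate 1 the adjusted p was 0.18 for GAD1-AS-1, 0.079 for DLX5-AS-1, 0.17 for SST-AS-1 and 0.18 for HTR3A-AS-1. Without CP replicate 2 it was 0.15, 0.061, 0.14 and 0.19 in the same order, and without MZ replicate 2 it was 0.17, 0.082, 0.15 and 0.21, while without MZ replicate 1 these 4 calls held.

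**Figure D2:**
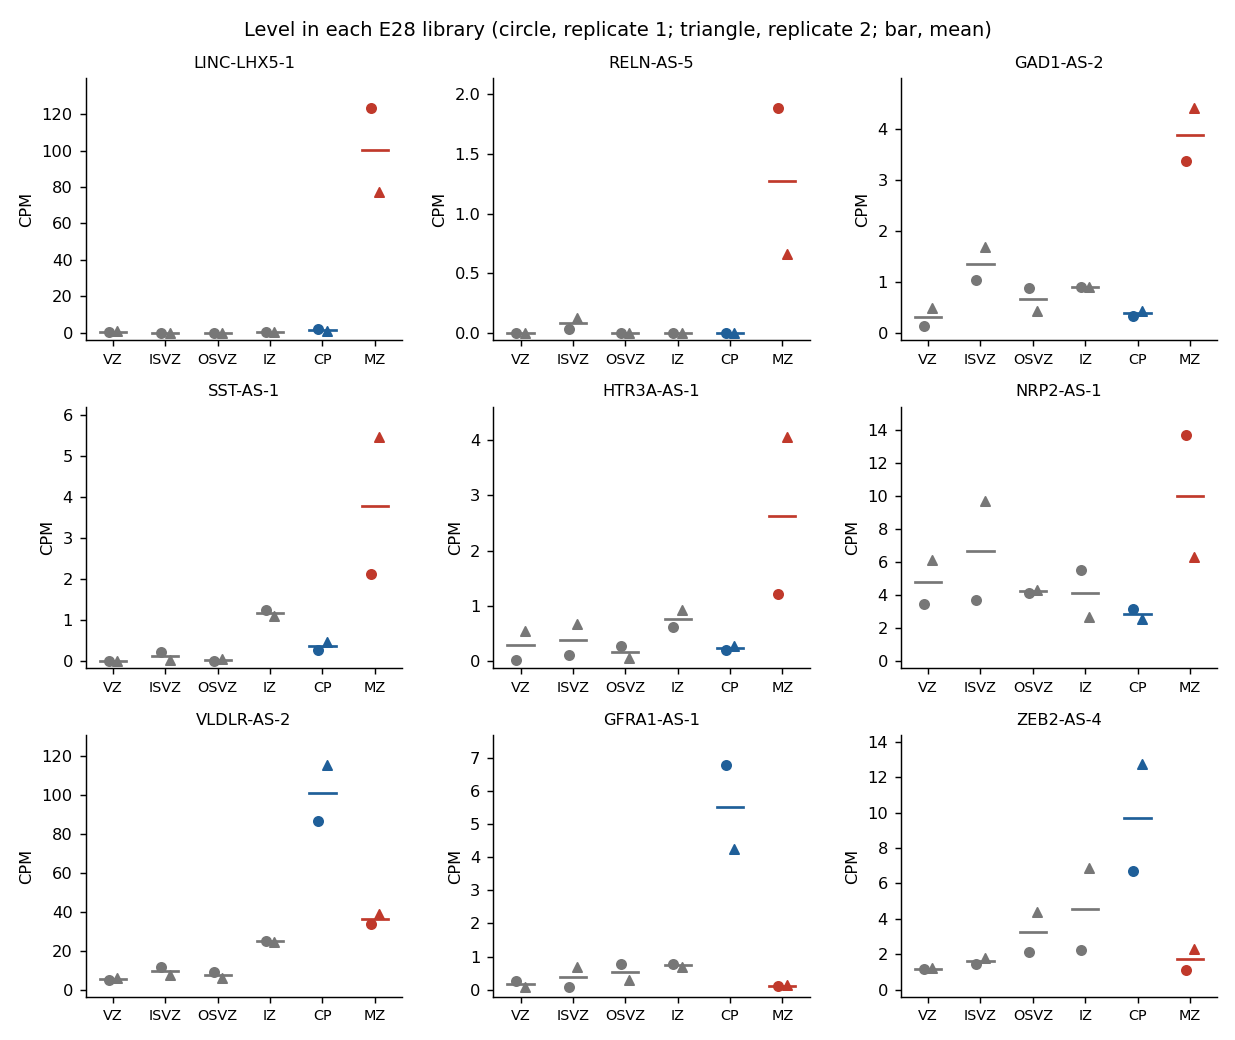
CPM of 9 features in each E28 library (vertical axes) by layer from the VZ to the MZ (horizontal axes), with a circle for replicate 1, a triangle for replicate 2 and a bar for their mean. LINC-LHX5-1 and RELN-AS-5 are near 0 outside the MZ. The interneuron features GAD1-AS-2, SST-AS-1 and HTR3A-AS-1 have their highest mean in the MZ, without a call against the IZ. VLDLR-AS-2, GFRA1-AS-1 and ZEB2-AS-4 have their highest mean in the CP.

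Features named for deep-layer projection neuron genes, whose neurons fill the CP first, lay below the CP in most cases, without a call in that direction by the test used here. Of 33 tested, the 1 call was ETV1-AS-1, higher in the MZ, and it rested on a single library, with 1.15 CPM in MZ replicate 1 and no count in the other 3 (adjusted p = 0.024, and 1.00, 0.10 and 0.18 without MZ replicate 1, CP replicate 1 and CP replicate 2). The summed level of the list was 7.68 and 6.75 CPM in the MZ and 19.2 and 18.2 CPM in the CP. Of the 25 with at least 10 counts, 13 had both MZ libraries below both CP libraries and the median log2 fold change was −1.37. Over the 6992 LINC and AS features with that many counts the median was 0.398. The layers did not overlap, in either direction, for 2278 of those 6992. The count called lower was 0 by edgeR's quasi-likelihood test, 11 at an unadjusted p under 0.05, 4 by the DESeq2 Wald test and 3 with the replicate block.

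SOX5 encodes a factor that controls the timing of deep-layer neuron production. SOX5-AS-7 had 0.334 and 0.485 CPM in the MZ and 4.96 and 1.38 CPM in the CP (adjusted p = 0.053), and SOX5-AS-6 had 0.698 and 0 CPM in the MZ and 4.59 and 2.44 CPM in the CP (adjusted p = 0.079). FEZF2 specifies corticofugal neurons, and LINC-FEZF2-1 had no count in the MZ and 0.615 and 0.298 CPM in the CP (adjusted p = 0.096). These 3 features separated the layers and missed the threshold, which SOX5-AS-7 and SOX5-AS-6 passed with the replicate block (adjusted p = 0.041 and 0.0036). BCL11B-AS-2, named for a gene of subcerebral neurons, had 0.971 and 0.0441 CPM in the MZ and 0 and 0.216 CPM in the CP, so that its layers overlapped.

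Of 39 tested features of upper-layer neuron genes, edgeR's quasi-likelihood test called 0, with 4 higher and 1 lower in the MZ at an unadjusted p under 0.05, 2 higher by the DESeq2 Wald test and 3 higher with the replicate block. The summed level of the list overlapped between the layers, with 52.7 and 68.0 CPM in the MZ and 43.3 and 66.2 CPM in the CP.

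Among 18 tested features of general neuronal genes 1 was lower in the MZ. RBFOX1 encodes a neuronal splicing factor, and RBFOX1-AS-4 had 0 and 0.132 CPM in the MZ and 1.15 and 1.51 CPM in the CP. The CP level was 25.4 times that of the MZ (95% counting interval 8.40 to 126) and the adjusted p was 0.017, which became 0.059 without CP replicate 2 and 0.13 without MZ replicate 1. LINC-NEUROD2-1, named for a factor of young excitatory neurons, had 1.00 and 4.19 CPM in the MZ and 6.03 and 4.30 CPM in the CP (adjusted p = 0.42). DCX-AS-1 was at or under 0.265 CPM throughout. No feature of TBR1 was tested.

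Features of radial glia and astroglia genes gave 3 calls higher in the MZ and 1 lower out of 47 tested. SOX1 and SOX2 encode related transcription factors of neural progenitors. LINC-SOX1-7 had 2.12 and 2.03 CPM in the MZ and 0.369 and 0.460 CPM in the CP (log2 fold change 2.31 ± 0.66, adjusted p = 0.024). LINC-SOX1-1 had 0.667 and 0.0882 CPM in the MZ and 0.0410 and 0 CPM in the CP, an MZ level 26.5 times that of the CP (95% counting interval 4.32 to 1088, adjusted p = 0.0038). LINC-SOX2-3 had 0.941 and 0.221 CPM in the MZ and 0 and 0.0541 CPM in the CP, 19.9 times (95% counting interval 5.11 to 170, adjusted p = 0.011). These 3 had their highest mean outside the MZ: LINC-SOX1-1 had 18.0 and 20.1 CPM in the VZ, LINC-SOX2-3 had 8.07 and 9.77 CPM there, and LINC-SOX1-7 had 5.26 and 2.47 CPM in the ISVZ. Without MZ replicate 1 the adjusted p was 0.46 for LINC-SOX1-1, 0.23 for LINC-SOX2-3 and 0.065 for LINC-SOX1-7. LINC-SOX1-1 also lost its call without CP replicate 2 (0.11), LINC-SOX2-3 without CP replicate 1 (0.090), and LINC-SOX1-7 without either (0.14 and 0.13).

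LIFR encodes a receptor of the cytokine LIF, and LIFR-AS-4 had no count in the MZ and 0.164 and 0.379 CPM in the CP, at least 5.44-fold lower in the MZ (adjusted p = 0.047, and 0.18, 0.19 and 0.12 without CP replicate 2, MZ replicate 1 and MZ replicate 2). LINC-SOX2-2, the SOX2 feature with the most counts over the series, had 2.40 and 1.10 CPM in the MZ and 0.820 and 0.189 CPM in the CP (adjusted p = 0.22). It passed under 3 of the 15 other settings, among them the replicate block (0.05, rounded up) and no filter on low counts (0.048), and not without CP replicate 2 or MZ replicate 1. With the block the list had 5 features higher and 2 lower. The summed level of the glial list was 14.6 and 10.0 CPM in the MZ and 7.92 and 9.14 CPM in the CP. No count fell on a feature of PAX6, VIM or GFAP, and no feature with a count in the MZ or CP libraries carried the symbol FABP7 or HES5.

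Lists of the other cells that a dissected MZ could hold gave 1 call. Meninges cover the MZ, and of 11 tested features of meningeal fibroblast genes edgeR's quasi-likelihood test called 0, as did the DESeq2 Wald test, and 0 had an unadjusted p under 0.05. Only 3 of the 11 features had at least 10 counts over the 4 libraries, so the absence of calls carries little weight. Their summed level was 0.789 and 3.57 CPM in the MZ and 1.03 and 1.35 CPM in the CP, and no count fell on a feature of COL1A1, COL1A2 or FOXC1. No feature with a count in the MZ or CP libraries carried the symbol COL3A1, LUM or TWIST1. DCN-AS-1, named for the fibroblast proteoglycan decorin, had 0.303 and 1.68 CPM in the MZ and 0.246 and 0.298 CPM in the CP (adjusted p = 0.33).

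Vessels and microglia also reach into these layers. ETS1 is a transcription factor of endothelium, and LINC-ETS1-5 was lower in the MZ, with no count there and 0.123 and 0.162 CPM in the CP, at least 2.72-fold (adjusted p = 0.048, lost without each of the 4 libraries in turn, up to 0.20). It was the 1 call in 14 tested features of endothelium and pericytes, and no count fell on a feature of KDR, CLDN5 or PDGFRB. The summed level of that list was 3.79 and 7.32 CPM in the MZ and 5.13 and 4.38 CPM in the CP. Of 4 tested features of microglia edgeR's quasi-likelihood test called 0, as did the DESeq2 Wald test, and 0 had an unadjusted p under 0.05. Of the 14 symbols of that list 8 had a feature, and no count fell on those of CSF1R or CX3CR1. No feature with a count in the MZ or CP libraries carried the symbol AIF1 or P2RY12. LINC-PTPRC-4, named for a leukocyte phosphatase, had 2.97 and 9.70 CPM in the MZ and 4.39 and 21.6 CPM in the CP, higher in replicate 2 of both layers. Of 6 tested features of the subplate, 10 of intermediate progenitors and 7 of the oligodendrocyte lineage, edgeR's quasi-likelihood test and the DESeq2 Wald test called 0, and 1 intermediate progenitor feature had an unadjusted p under 0.05. In the same order, 1, 8 and 1 of these features had at least 10 counts over the 4 libraries. The share of each cell type in the RNA of these layers was not tested.

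**Figure D3:**
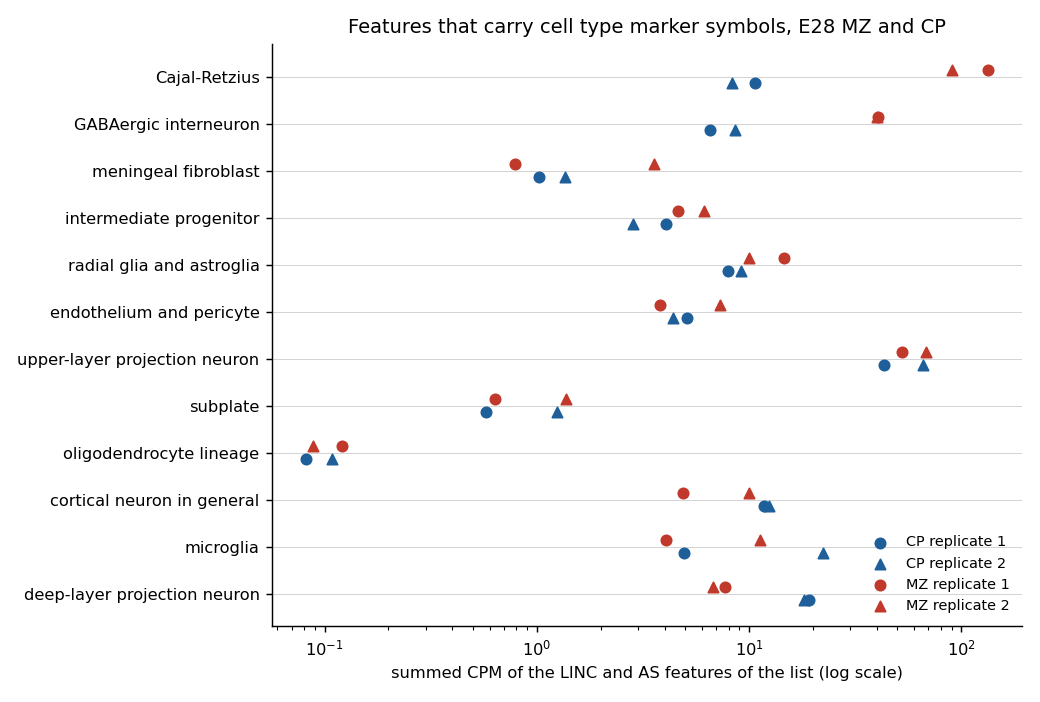
Summed CPM of all LINC and AS features that carry a marker symbol of each cell type (horizontal axis, log scale) in the 4 libraries, ordered by the ratio of MZ (red) to CP (blue), with circles for replicate 1 and triangles for replicate 2. The Cajal-Retzius sums were 134 and 90.3 CPM in the MZ and 10.6 and 8.28 CPM in the CP, those of GABAergic interneurons 40.3 and 40.0 against 6.52 and 8.58 CPM, and those of deep-layer neurons 7.68 and 6.75 against 19.2 and 18.2 CPM.

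Over all 20 lists, which hold 679 symbols, 681 features were tested, and 18 (2.64%) were higher in the MZ and 5 (0.734%) lower, against 0.914% and 0.784% of all LINC and AS features. The members were chosen with earlier results of these data known, so the difference between these shares is a description. With the replicate block 34 were higher and 10 lower, and the axon guidance list then had 5 higher, the cadherin and protocadherin list 2 higher and the synaptic adhesion list 2 higher. Without CP replicate 1, CP replicate 2 and MZ replicate 1 the higher members numbered 5, 8 and 9, and without MZ replicate 2 and CP replicate 2 the lower members numbered 9 and 3.

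The pathway lists held at most 2 calls each. Of 96 tested features of axon guidance genes 1 was higher: NRP2 encodes a semaphorin co-receptor of migrating interneurons and axons, and NRP2-AS-1 had 13.7 and 6.31 CPM in the MZ and 3.16 and 2.54 CPM in the CP (log2 fold change 1.82 ± 0.52, adjusted p = 0.024, lost without each library but MZ replicate 2, up to 0.31). Of 43 cadherin and protocadherin features 1 rose and 1 fell. LINC-CDH4-2, named for retinal cadherin, had 13.0 and 8.64 CPM in the MZ and 6.07 and 3.57 CPM in the CP (log2 fold change 1.17 ± 0.34, adjusted p = 0.027, and 0.35 and 0.27 without CP replicate 2 and MZ replicate 1). Its highest mean was in the IZ, at 18.2 and 11.9 CPM. LINC-CDH11-5, named for a mesenchymal cadherin that neurons also express, had 3.16 and 0.750 CPM in the MZ and 13.0 and 3.41 CPM in the CP (log2 fold change −2.05 ± 0.61, adjusted p = 0.031). Replicate 1 was above replicate 2 in both layers, and the call was lost without CP replicate 1 (0.50) and MZ replicate 2 (0.19).

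Adhesion and matrix features gave 1 call each. NCAM2 encodes a neural cell adhesion molecule, and LINC-NCAM2-2 was the 1 feature of 68 for synaptic adhesion genes that was called, with 0.637 and 0.794 CPM in the MZ and 0.0410 and 0.0541 CPM in the CP, 14.3 times the CP level (95% counting interval 4.56 to 72.5, adjusted p = 0.040). ADAMTS9 encodes a secreted metalloprotease that cleaves proteoglycans, and ADAMTS9-AS-1 was the 1 called of 43 extracellular matrix features, with 0.485 and 0.617 CPM in the MZ and 0 and 0.0271 CPM in the CP, 33.1 times (95% counting interval 5.50 to 1350, adjusted p = 0.042). Both lost the call without each of the 4 libraries, with adjusted p up to 0.20. The 19 matrix features with at least 10 counts had a median log2 fold change of 1.25, against 0.398 over the LINC and AS features with that many counts.

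In the morphogen list 1 of 63 tested features was higher. FGF12 belongs to a subfamily of fibroblast growth factor homologues that stay in the cell and bind sodium channels, and FGF12-AS-1 had 4.37 and 0.838 CPM in the MZ and 0.328 and 0.108 CPM in the CP (log2 fold change 3.63 ± 0.92, adjusted p = 0.011, and 0.17 and 0.28 without CP replicate 2 and MZ replicate 1). HTR3A-AS-1 was the 1 call among 59 features of neurotransmitter receptors. Of 56 tested features of voltage-gated channels edgeR's quasi-likelihood test called 0, with 8 higher and 1 lower in the MZ at an unadjusted p under 0.05 and 2 higher by the DESeq2 Wald test. Over all 26858 features tested, of every class and in either direction, 6154 had an unadjusted p under 0.05.

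Beyond the lists, the LINC and AS features of at least 1 CPM with the largest fold changes included several that were all but absent from one layer, whose fitted fold changes depend on the prior count and are given as bounds or ratios. NDST4 encodes an enzyme that sulfates heparan sulfate. LINC-NDST4-3 had 2.21 and 3.40 CPM in the MZ and no count in the CP, at least 55.1-fold higher (adjusted p = 0.0020), and LINC-NDST4-1 had 3.28 and 0.706 CPM in the MZ and none in the CP, at least 45.6-fold higher (adjusted p = 0.0057, and 0.070 without CP replicate 2). Both were also at or under 0.0346 CPM in each library of the other E28 layers.

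RALGAPA1 encodes a subunit that restrains Ral GTPases, and LINC-RALGAPA1-1 had 2.73 and 2.73 CPM in the MZ and no count in the CP, at least 55.9-fold higher (adjusted p = 0.0023). MYOCD encodes myocardin, a coactivator of smooth muscle genes, and MYOCD-AS-3 had 1.64 and 1.28 CPM in the MZ and 0.0410 and 0 CPM in the CP, 91.5 times (95% counting interval 16.0 to 3658, adjusted p = 0.019, and 0.18 without CP replicate 2). It had no count in the IZ, OSVZ, ISVZ or VZ of E28. LINC-PLAC1-1, named for a gene known from placenta, had 0.910 and 1.32 CPM in the MZ and none in the CP, at least 22.1-fold higher (adjusted p = 0.0023, and 0.051 without CP replicate 2). Its highest mean was in the ISVZ, at 1.98 and 0.335 CPM, and the MZ was not called against the IZ, OSVZ, ISVZ or VZ.

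CPED1-AS-4 had 1.52 and 0.706 CPM in the MZ and none in the CP, at least 24.3-fold higher (adjusted p = 0.0087, and 0.099 without CP replicate 2). Unlike the features of NDST4 and MYOCD it was highest in the ISVZ, at 4.80 and 7.86 CPM. The features described in the last 3 paragraphs, with LINC-LHX5-1 and RELN-AS-5, are the 8 of largest fold change in this direction, chosen by that size.

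In the other direction GFRA1-AS-1 led. GFRA1 encodes the co-receptor of the growth factor GDNF. GFRA1-AS-1 had 0.121 and 0.132 CPM in the MZ and 6.77 and 4.25 CPM in the CP, a log2 fold change of −5.41 ± 0.90 (adjusted p = 0.00026), and the call held without each library. It was at or under 0.774 CPM in each library of the IZ, OSVZ, ISVZ and VZ, so that the CP stood above the 5 other layers of E28.

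Of the other 7 lower features of this kind, RBFOX1-AS-4 is described above. SH3GL2 encodes an endophilin of synaptic vesicles, and SH3GL2-AS-1 had 0.364 and 0.926 CPM in the MZ and 4.72 and 8.11 CPM in the CP (log2 fold change −3.33 ± 0.72, adjusted p = 0.0032). ZEB2, a transcription factor of young cortical neurons and migrating interneurons, carries ZEB2-AS-4, which had 1.12 and 2.29 CPM in the MZ and 6.73 and 12.7 CPM in the CP (log2 fold change −2.52 ± 0.52, adjusted p = 0.0023). Both calls held without each library.

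HS3ST4 encodes another enzyme that sulfates heparan sulfate, and LINC-HS3ST4-2 had 0.425 and 3.04 CPM in the MZ and 4.84 and 13.5 CPM in the CP (log2 fold change −2.43 ± 0.74, adjusted p = 0.037, and 0.33 and 0.23 without CP replicate 2 and MZ replicate 1). KHDRBS2 encodes an RNA-binding protein, and LINC-KHDRBS2-4 had 0.0607 and 0.441 CPM in the MZ and 3.44 and 2.81 CPM in the CP (log2 fold change −3.69 ± 1.2, adjusted p = 0.047, and 0.10, 0.089 and 0.24 without CP replicate 1, CP replicate 2 and MZ replicate 1). NAA35 encodes a subunit of an acetyltransferase, and LINC-NAA35-1 had 0 and 0.132 CPM in the MZ and 1.15 and 1.24 CPM in the CP, where the level was 22.4 times that of the MZ (95% counting interval 7.36 to 111, adjusted p = 0.013, and 0.11 without MZ replicate 1). All 3 were highest in the CP among the layers of E28.

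Several symbols had more than 1 called feature, and within each of them the calls went one way. TMEM132B had 3 higher features: LINC-TMEM132B-23 with 2.97 and 2.21 CPM in the MZ and 0.246 and 0.216 CPM in the CP (log2 fold change 3.48 ± 0.55, adjusted p = 0.00013), LINC-TMEM132B-21 with 1.24 and 3.40 CPM in the MZ and 0.123 and 0.162 CPM in the CP (log2 fold change 3.97 ± 1.1, adjusted p = 0.017), and LINC-TMEM132B-3 with 0.303 and 0.221 CPM in the MZ and none in the CP (at least 5.51-fold, adjusted p = 0.040). They differed in place: LINC-TMEM132B-23 was highest in the VZ, at 11.8 and 18.8 CPM, and the other two in the MZ. LINC-TMEM132B-21 lost its call without CP replicate 1, CP replicate 2 and MZ replicate 2 (0.11, 0.12 and 0.095), and LINC-TMEM132B-3 without each of the 4 libraries, up to 0.23.

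FSTL4 encodes a secreted follistatin-like protein. LINC-FSTL4-1 had 6.58 and 3.04 CPM in the MZ and 0.123 and 0.216 CPM in the CP (log2 fold change 4.76 ± 0.90, adjusted p = 0.0011), and FSTL4-AS-2 had 1.15 and 0.706 CPM in the MZ and 0 and 0.0271 CPM in the CP, 59.5 times (95% counting interval 10.2 to 2395, adjusted p = 0.0084, and 0.075 and 0.058 without CP replicates 1 and 2). PPIA, SOX1, NDST4 and GAD1 also had 2 higher features each. The PPIA pair, LINC-PPIA-17 at 2.70 and 1.85 CPM in the MZ and 0.492 and 0.298 CPM in the CP (adjusted p = 0.034) and PPIA-AS-2 at 2.55 and 0.617 CPM in the MZ and 0.164 and 0.271 CPM in the CP (adjusted p = 0.029), is uncertain, since this gene has many near-identical copies in mammalian genomes between which reads can be split. Without MZ replicate 1 their adjusted p was 0.14 and 0.43, without CP replicate 1 it was 0.091 and 0.17, and without CP replicate 2 it was 0.26 and 0.13. LINC-PPIA-17 had its highest mean in the ISVZ, at 3.97 and 1.46 CPM.

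Of the TSDBGID features of at least 10 CPM, whose genes the files do not name, TSDBGID.7408 differed most upward. It had 19.9 and 11.5 CPM in the MZ and 0 and 0.0541 CPM in the CP, 505 times the CP level (95% counting interval 139 to 4177, adjusted p = 6.1e-06), and was at or under 0.0742 CPM in the other E28 layers. TSDBGID.14650 followed with 26.2 and 10.4 CPM in the MZ and 0.0820 and 0.135 CPM in the CP (log2 fold change 7.31 ± 1.6, adjusted p = 0.0061, and 0.061 and 0.074 without CP replicates 1 and 2). Downward, TSDBGID.8095 had 8.83 and 2.25 CPM in the MZ and 134 and 48.8 CPM in the CP (log2 fold change −4.03 ± 0.69, adjusted p = 0.00086). TSDBGID.21058 had 1.24 and 2.25 CPM in the MZ and 8.00 and 39.0 CPM in the CP (log2 fold change −3.76 ± 1.1, adjusted p = 0.034), a spread within the CP that left it without a call when CP replicate 2 (0.28), MZ replicate 1 (0.19) or MZ replicate 2 (0.098) was left out.

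The MZ was also set against the whole E28 wall. In 151 of 26858 features (0.562%) the MZ was higher than each of the 5 other layers in 5 tests that share the MZ libraries, and 333 passed with the replicate block. Since the CP is among the 5, these features lie by construction within those higher than the CP. Of these 151, 10 were LINC or AS features, among them LINC-LHX5-1, LINC-NDST4-3, LINC-NDST4-1 and MYOCD-AS-3. LINC-LHX5-1 stood at 0.193 and 0.276 CPM in the IZ, 0.0275 and 0 CPM in the OSVZ, 0.0361 and 0 CPM in the ISVZ and 0.415 and 0.792 CPM in the VZ, each far below the MZ. The count was 97, 72 and 75 without CP replicate 1, CP replicate 2 and MZ replicate 1, and 73 and 60 without IZ replicates 1 and 2. Without VZ replicate 2, whose file was deposited under both stages, it was 129.

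A share of the features higher in the MZ than in the CP reached their highest mean in another layer. Of the 1096 TSDBGID features of this kind, 518 (47.3%) were highest in the MZ, 306 (27.9%) in the VZ and 173 (15.8%) in the IZ. Of the 99 LINC and AS features, 63 (63.6%) were highest in the MZ and 20 (20.2%) in the VZ. The CP cannot be the highest layer of a feature called higher in the MZ, nor the MZ that of a feature called lower. Of the 1194 lower TSDBGID features, 542 (45.4%) were highest in the CP, 314 (26.3%) in the ISVZ and 221 (18.5%) in the VZ. Among the list members, the interneuron features GAD1-AS-2 and SST-AS-1 had their highest mean in the MZ. Against the IZ the MZ did not pass for either (adjusted p = 0.078 and 0.30), nor for GAD1-AS-2 against the ISVZ (0.094). DLX5-AS-1 had its highest mean in the ISVZ, at 3.89 and 2.65 CPM, a level that did not pass the test against the MZ (adjusted p = 0.35).

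**Figure D4:**
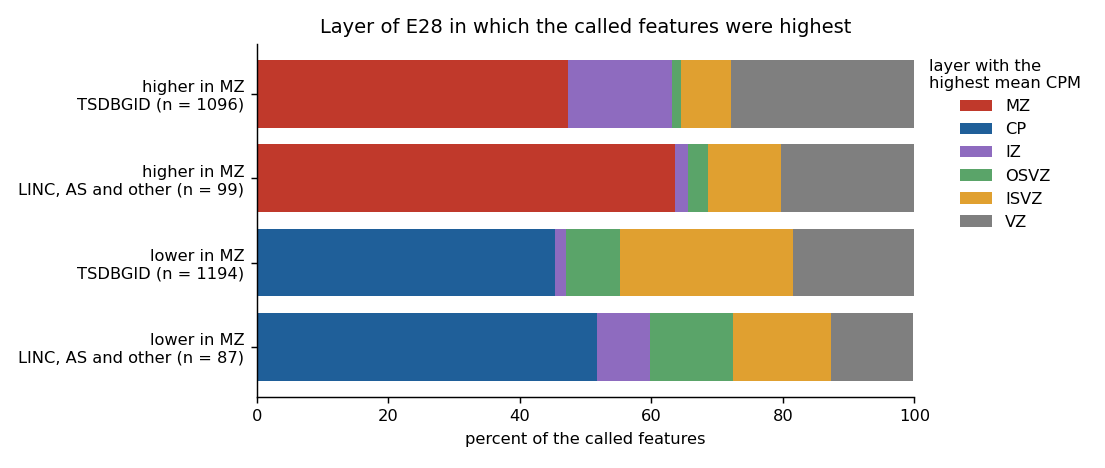
Percentage of the called features (horizontal axis) by the E28 layer in which their mean CPM was highest, for features higher and lower in the MZ than in the CP. The MZ was the highest layer for 47.3% of the higher TSDBGID features and 63.6% of the higher LINC and AS features, and the CP for 45.4% of the lower TSDBGID features.

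The E28 difference was set against the same comparison at E37 and E42, with separate libraries in the same model. At E37 the MZ (2 libraries) was higher than the CP (1 library of the undivided CP and 2 each of its inner and outer parts, CPi and CPo) in 2757 features (10.3%) and lower in 2262 (8.42%). At E42 the MZ (2 libraries) was higher than the mean of the CPi and CPo (2 libraries each) in 2795 features (10.4%) and lower in 1856 (6.91%). Of the 1195 features higher at E28, 868 (72.6%) were also called higher at E37 and 805 (67.4%) at E42, and they made up 31.5% and 28.8% of those later lists. Of the 1281 lower at E28, 873 (68.1%) were also called lower at E37 and 673 (52.5%) at E42, or 38.6% and 36.3% of the later lists. For the 99 higher LINC and AS features the shares were 45.5% and 46.5%, and for the 85 lower ones 28.2% and 15.3%. How many of all LINC and AS features were called at E37 and E42 is not given here, so these shares stand without a base rate.

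LINC-LHX5-1 had 30.5 and 67.5 CPM in the MZ of E37 and 11.9 and 18.9 CPM in that of E42, with at most 0.269 CPM in the CP libraries of those stages, and the difference passed at both (adjusted p = 2e-10 and 1.4e-09). VLDLR-AS-2 had 21.7 and 19.9 CPM in the MZ of E37 against 34.5 to 75.3 CPM in its CP libraries, and 20.0 and 19.8 CPM in the MZ of E42 against 43.4 to 55.1 CPM, and was lower at both stages (adjusted p = 4.3e-05 and 4.5e-05). HTR3A-AS-1 was likewise higher in the MZ at both stages (adjusted p = 9e-04 and 0.00022). SST-AS-1 did not pass at E37 or E42 (adjusted p = 0.053 and 0.75): in the MZ of E42 it had 1.04 and 0.338 CPM, and in the CPi of that stage 3.43 and 2.51 CPM.

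The MZ-CP difference at E28 was tested against the mean of the later differences. It was higher at E28 in 149 features (0.555%) and lower in 275 (1.02%), and with the replicate block in 396 and 610. GFRA1-AS-1, lower in the MZ at E28, was among the 275: the E28 difference minus the later one was −3.74 on the log2 scale (adjusted p = 0.038). Its MZ level was 0.121 and 0.132 CPM at E28, 0.556 and 2.04 CPM at E37 and 2.32 and 1.54 CPM at E42 while its CP libraries lay between 2.43 and 12.9 CPM at all stages. LINC-TMEM132B-3 also passed, with a higher difference at E28 (adjusted p = 0.015) whose size is not given, since the E28 CP had 0 counts of it. Its highest levels were in the CPi of E42, at 3.15 and 3.90 CPM, against 0.0478 and 0.145 CPM in the MZ of that stage. LINC-LHX5-1, VLDLR-AS-2, GAD1-AS-1, GAD1-AS-2, DLX5-AS-1 and SST-AS-1 did not pass this test.

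Of the 12 LINC and AS features called at E28 that passed, LINC-GLUL-1 was singled out after its values were seen. It is named for glutamine synthetase, an enzyme of astroglia, and had 22.4 and 19.1 CPM in the MZ and 41.0 and 41.6 CPM in the CP at E28 (log2 fold change −0.99, adjusted p = 0.0012). Its log2 fold change was −0.06 at E37 (adjusted p = 0.93) and 1.87 at E42 (adjusted p = 1.2e-09), so that the direction at E42 was opposite (adjusted p of the difference between stages = 1.4e-05). The count of features whose difference was higher at E28 was 55 without CP replicate 1, 71 without MZ replicate 1, 229 without MZ replicate 2 of E28 and 87 without MZ replicate 2 of E42, and that of features lower at E28 was 166 without CP replicate 1 of E28 and 179 without MZ replicate 2 of E42.

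**Figure D5:**
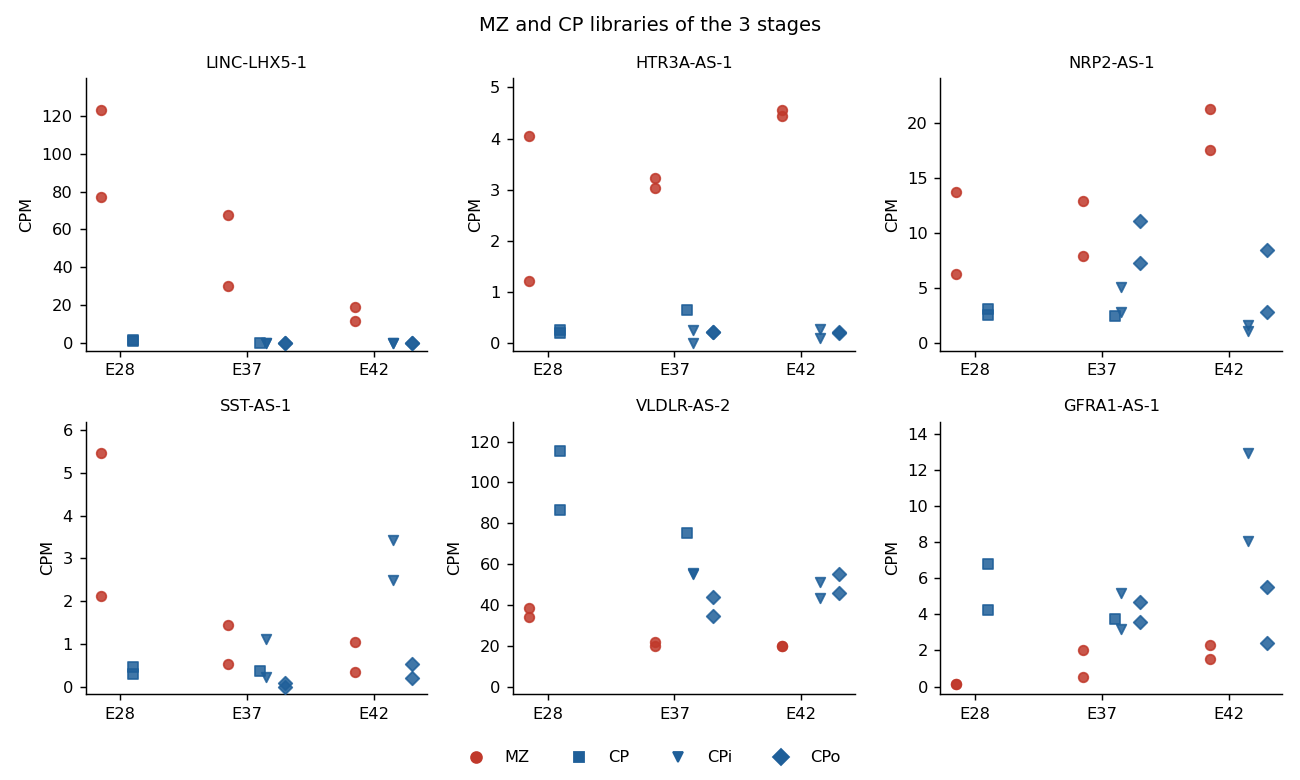
CPM of 6 features (vertical axes) in the MZ (red circles) and the CP libraries (blue; squares for the undivided CP, triangles for the CPi, diamonds for the CPo) at E28, E37 and E42 (horizontal axes). LINC-LHX5-1 in the MZ was at 123 and 77.1 CPM at E28 and at 11.9 and 18.9 CPM at E42, VLDLR-AS-2 was lower in the MZ at each stage, and the MZ level of GFRA1-AS-1 was lowest at E28.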

How the data were processed

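Gene counts were deposited, 1 file a library, and per the labels and the study's methods the authors aligned the reads with HISAT2, handled the alignments with SAMtools and counted reads per feature with HTSeq. The use of strand in counting is not given in the sources used here. The summary lines of the counter were removed. In R 4.3.3, edgeR 4.0.16 fitted a quasi-likelihood model to 35 distinct libraries in 18 groups (17 residual degrees of freedom) with TMM scaling, after filterByExpr with a minimum count of 10, which kept 26858 of 76871 features. p-values were adjusted by the Benjamini-Hochberg method. The replicate numbers pair the E28 libraries, since deviations from the layer means correlated above 0.1 in 15 of 15 pairs of layers (0.165 to 0.260), and the model with the number as a block is given beside results it changes. DESeq2 1.42.0, other scalings, filters and sample sets, and each library left out in turn served as alternatives. Counts were simulated for the 35 libraries with known changes in the E28 MZ, and 23265 features passed the filter. For the E28 MZ against the CP, edgeR found 32% of features changed by a log2 fold of 1 and 76% of those changed by 2. Of its 116 calls 8 were false. The simulation held no layer differences beyond the added changes and no pairing by replicate number, and it took the fitted dispersions as true. Its share of false calls therefore may not hold in these data. Changes were simulated only in features with a mean of at least 1 CPM over the series, so these shares do not cover features of lower level. Of 10836 LINC and AS features tested, 9173 were under 1 CPM in the higher layer. Features are named where they belong to a list and were called, are the feature of a fixed marker symbol with the most counts, are the 8 LINC or AS features a direction of largest fold change with at least 1 CPM and no overlap between the layers, are the 2 TSDBGID features a direction with at least 10 CPM, or share a symbol with another called feature. Other list members and LINC-GLUL-1 were named after their values were seen. The comparison, its lists and its tests were chosen with earlier results of these data known. Counting intervals (95%, exact) and the floor of 3 counts cover counting error only. Some features that meet these naming rules are not reported here.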

Additional observations from a re-analysis of the deposited data

Results flagged for a closer look

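The difference between the MZ and the CP at E28 was tested against the mean of the differences at E37 and E42. The test passed in 149 features with a higher and in 275 with a lower difference at E28. Among the features named by size or locus, GFRA1-AS-1 passed with a difference between stages of −3.74 on the log2 scale (adjusted p = 0.038, edgeR's quasi-likelihood test), and LINC-TMEM132B-3 passed with a fitted value of 9.18 (adjusted p = 0.015). That value is no measured size, since it depends on the prior count: the E28 libraries held 15 counts in the MZ and 0 in the CP.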

How the results depend on the processing

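Counts are given in the order higher and lower in the MZ than in the CP. With the replicate block, which pairs the libraries, they were 1814 and 2458 for all features, 163 and 153 for LINC and AS features and 34 and 10 for list members, 333 features were higher in the MZ than in all 5 other layers, and the stage difference passed in 396 and 610. The DESeq2 Wald test gave 1929 higher features, 202 higher LINC and AS features, 34 and 10 list members, 347 above all 5 layers, and 411 and 497 for the stages. DESeq2's size factors gave 821 lower features and 3 lower list members. Without a filter there were 28 and 8 list members and 336 features with a higher difference at E28. With all 36 files there were 786 lower features, 63 and 53 LINC and AS features, 10 and 3 list members, 88 above all 5 layers, and 82 and 163 for the stages. The 12 E28 libraries gave 731 and 474 features, 28 and 27 LINC and AS features, 6 and 2 list members and 68 above all 5 layers, or 228 with the replicate block. The compared libraries alone gave 43 and 6 features, 1 and 0 LINC and AS features, 1 and 0 list members, and 135 lower at E28 than later, with 2440 features at an unadjusted p under 0.05. A fold threshold of 1 on the log2 scale left 478 lower features.

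Leaving out 1 library at a time gave 484 to 1081 higher and 671 to 1455 lower features, 34 to 106 and 46 to 180 LINC and AS features, 5 to 18 and 3 to 9 list members, 60 to 182 features above all 5 layers, and 55 to 229 and 166 to 371 for the stages. Without MZ replicate 2 the median log2 fold change of all features was −0.144. In each alternative, 0 of the features called here were called in the opposite direction. Among uncalled named features LINC-TP73-1 changed sign when library sizes excluded the 20 features of highest count (−0.03), without CP replicate 2 (−0.22) and without MZ replicate 2 (−0.21), BCL11B-AS-2 without MZ replicate 1 (−1.39), DCX-AS-1 without CP replicate 2 (−1.03) and without MZ replicate 2 (−5.13), and CALB2-AS-2 was at 0.00 without CP replicate 2. ETV1-AS-1, called higher, was at 0.00 without MZ replicate 1. Over the 4 libraries left out in turn the log2 fold changes spanned −0.22 to 0.14 for LINC-TP73-1, −1.39 to 7.16 for BCL11B-AS-2, −5.13 to 5.16 for DCX-AS-1, −4.98 to 0.00 for CALB2-AS-2 and 0.00 to 8.33 for ETV1-AS-1. The cause of these changes was not tested. At this depth a feature with 0 counts in one layer has a bound and no measured fold change.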
